A study of Mus musculus with 16 samples.

Results

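Mouse marrow stromal progenitors labelled KO (Nmp4-/- in the series text) and WT were compared at day 7 after seeding, in osteogenic culture. The comparison took in 8 of the 16 libraries of the series, chosen by genotype and day in their labels, and all 13474 genes of the count table. Libraries 13, 14, 15 and 16 were labelled KO and libraries 9, 10, 10b and 11 were labelled WT, and values per library are given in these orders. All 8 came from C57BL/6 bone marrow-derived mesenchymal stem/progenitor cells (MSPCs) between passage 5 and passage 10. The animals' age and the construction of the knockout allele are not given in the sources used here. Both groups were plated at 25000 cells per well (62 cells per mm2) in an α-MEM medium with serum. From 48 hours both received 5 µg/mL ascorbic acid, 10 nM dexamethasone and 10 mM glycerol 2-phosphate. The code in each title names a cell well, and what the b in 10b means was not given in the sources used here. By the series text a condition was 1 biological replicate with 4 technical replicates. The p-values below therefore measure only the spread between wells, and genotype cannot be told apart from the culture that carries it. The day 3 libraries, 4 per genotype, came from sparser cultures in a non-differentiating medium, and they are used here only to ask which differences at day 7 were already present.

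Zfp384 encodes Nmp4, a zinc finger protein of the nuclear matrix that binds A-rich DNA, and mice that lack it are known for a stronger gain of bone under parathyroid hormone. Osteoblasts arise from marrow stromal progenitors through the transcription factors RUNX2 and osterix. They secrete a matrix of type I collagen and then mineralise it. A cell that secretes this much protein depends on chaperones of the endoplasmic reticulum (ER), on the unfolded protein response that tunes them, and on a supply of amino acids and energy. Ascorbic acid serves the enzymes that hydroxylate collagen, and glycerol 2-phosphate supplies phosphate for mineral.

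Total counts were 32919372 to 41440013 in the KO-labelled libraries and 33980456 to 36528132 in the WT libraries, and RNA integrity numbers were 9.7 to 10 and 9.3 to 10. Zfp384 itself, the targeted gene on chromosome 6, stood at 111, 116, 122 and 119 CPM (counts scaled to a common library size, after TMM) in the KO-labelled libraries, against 89.5, 87.9, 83.8 and 91.3 CPM in the WT libraries. All KO-labelled libraries stood above all WT libraries, so the count of the whole gene does not check the label, and directions below rest on the labels alone. Counts were tested with edgeR's quasi-likelihood method, and calls were made where p, adjusted across all genes by the method of Benjamini and Hochberg, was under 0.05. Of all genes 86.0% were called, 41.7% higher and 44.3% lower in the KO-labelled libraries, and 44.1% passed a test against a 1.5-fold change. Wells of 1 culture vary little, so small differences can be called. For that reason many gene lists below are also counted at a change of at least 2-fold. Of all genes 13.7% reached this upward and 16.9% downward. Where the median log2 fold change of a list is given, it stands beside the median of -0.03 over all genes. Lists without a 2-fold count are given as calls only, to be read against the shares called over all genes. CPM values with ± are the mean and SD of the 4 libraries of a group, and log2 fold changes with ± carry an approximate standard error from the fit, which cannot be trusted for genes with few counts in a group. Groups did not overlap for 79.9% of all genes. All changes are relative to the bulk of genes. With library sizes worked out from the scaled columns of the authors the median of all genes would be 0.55, and 75.4% of the called genes would be higher in the KO-labelled libraries, against 48.5% here. With total counts alone the median would be -0.16.

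Genes of some chromosomes also shifted together. The median log2 fold change was 0.70 over the 492 genes of chromosome 13, 0.61 over the 833 of chromosome 4 and 0.61 over the 369 of chromosome 18, and it was -0.46 over the 1120 genes of chromosome 11 and -0.45 over the 484 of chromosome 12. At day 3 the same 5 chromosomes had medians of 0.83, 0.68, 0.68, -0.44 and -0.46. Its part in the results below was not tested, and an alternative that centred each chromosome on its own median moved a count of rising or falling members by over 1.5 times in 8 of 51 gene lists.

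**Figure D1:**
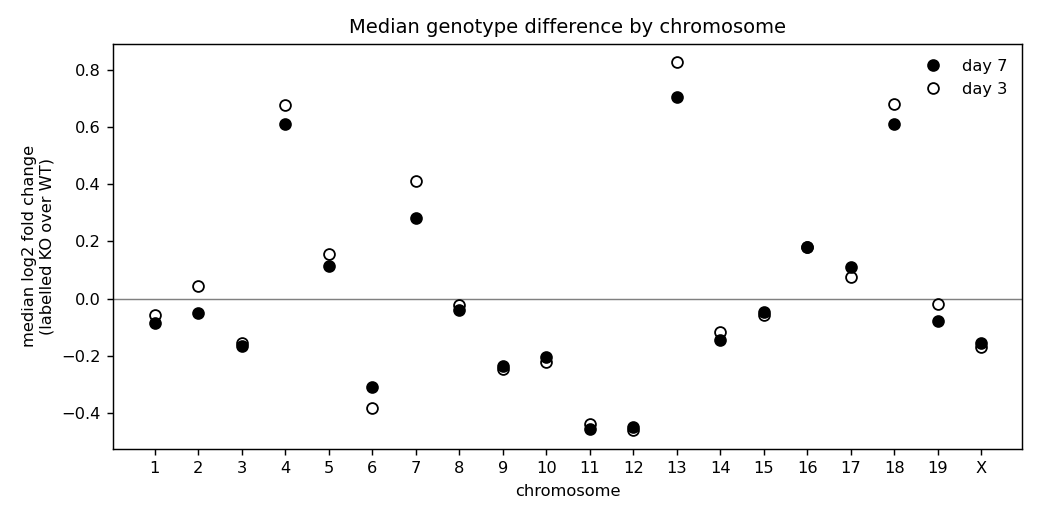
Median log2 fold change of the KO-labelled libraries over the WT libraries for the genes of each chromosome, at day 7 (filled circles) and day 3 (open circles); the Y chromosome is left out because it holds 5 measured genes. Chromosomes 13, 4 and 18 lie between 0.61 and 0.83 at both days, and chromosomes 11 and 12 between -0.44 and -0.46.

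The changes that moved most RNA were in the secreted matrix and in its folding machinery. Among the 12 genes with the largest increase of mean CPM, 6 encode matrix proteins assembled outside the cell, namely Col1a2, Col1a1, Fn1, Col3a1, Col5a1 and Col12a1. Sparc and Spp1 encode bone matrix proteins, Serpinh1 the collagen chaperone HSP47, and Hspa5, Hsp90b1 and Calr general ER chaperones. Col1a2, the second chain of type I collagen, had 28914, 29712, 27325 and 29436 CPM in the KO-labelled libraries, against 14720.5, 15256, 14099 and 14833 CPM in the WT libraries, a gain of 14119.6 CPM. Fn1, which encodes fibronectin, had 21209.6, 20875, 18583 and 21608 CPM, against 7059, 6813, 6433 and 7182 CPM in the WT libraries. Both genes were higher in every KO-labelled library than in any WT library. The 10 most counted genes took 12.6 ± 0.335% of all counts in the KO-labelled libraries and 7.45 ± 0.123% in the WT libraries (SD, n = 4 each; exact two-sided permutation test, p = 0.0286, the smallest that 4 against 4 can give, adjusted over 3 such measures p = 0.0429).

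The largest losses of CPM fell on a niche chemokine, on the actin cytoskeleton and on other matrix genes. Cxcl12 lost most, and its values are given with the niche genes. Gas6, a ligand of the TAM receptor kinases, had 246, 254, 231 and 213 CPM in the KO-labelled libraries, against 2108, 2211, 2163 and 2346 CPM in the WT libraries. Gpx3, a secreted glutathione peroxidase, had 92.4, 97.3, 82.6 and 82.6 CPM, against 1638, 1727, 1709 and 1643 CPM in the WT libraries. Neither gene had overlapping groups. The cytoskeletal genes in this set were Tpm1 (tropomyosin), Acta2 (smooth muscle actin) and the common actins Actb and Actg1. Actb fell to 1648 ± 72.9 CPM in the KO-labelled libraries, against 2885 ± 139.6 CPM in the WT libraries (SD, n = 4 each). Its log2 fold change was -0.81 ± 0.04 (standard error). The matrix genes were the collagen VI chains Col6a1 and Col6a2, the thrombospondins Thbs1 and Thbs2, and Serpine2, a protease inhibitor.

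Among the widest fold changes upward, several genes were near absence in the WT cells. Cdsn, which encodes the adhesion protein corneodesmosin, had 772, 814, 699 and 762 CPM in the KO-labelled libraries, against 1.33, 1.48, 1.4 and 1.98 CPM in the WT libraries. It is both the most abundant of these genes and one of the effectors counted under the integrated stress response, a list chosen with earlier results of these data known. Mme, the membrane peptidase neprilysin, had 81.9, 81.6, 89 and 77.9 CPM, against 0.379, 0.317, 0.0822 and 0.311 CPM in the WT libraries. Aqp5, a water channel, averaged 17.3 ± 1.14 and 0.0413 ± 0.0358 CPM in the same order, and Cpxm2, a member of the carboxypeptidase family, 31 ± 1.74 and 0.0339 ± 0.0262 CPM. The transcription factor genes Tfcp2l1 and Zbtb7c rose by 8.92 ± 0.23 and 8.15 ± 0.12 on the log2 scale. Adm2, a vasodilator peptide of the adrenomedullin family, had 4055 counts over the 4 KO-labelled libraries and 3 over the WT libraries, a KO to WT ratio of 1380 with a 95% counting interval of 472 to 6693. Intervals and floors of this kind cover counting error only.

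Downward, Slfn3, a schlafen gene, had 2 counts over the 4 KO-labelled libraries and 2927 over the WT libraries, a WT to KO ratio of 1431 (95% counting interval 396 to 11819). St14, which encodes the membrane protease matriptase, had 1 count in the KO-labelled libraries and 1708 in the WT libraries. Wdr72 and Tshz2, a zinc finger factor, had 2 counts each in the KO-labelled libraries, against 2373 and 2180 in the WT libraries. Pm20d1, which encodes a peptidase that makes N-acyl amino acids, averaged 0.0277 ± 0.032 CPM in the KO-labelled libraries and 33.6 ± 1.51 CPM in the WT libraries, and Plcd4, a phospholipase C, 0.061 ± 0.0657 and 69.6 ± 3.6 CPM. Xlr and Xlr4b fell as well, but they and Slfn3 belong to families of near-identical copies, and single members are uncertain because reads could have been split among them.

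Genes of mineral formation rose together. Of 13 measured genes of mineralisation and phosphate handling 11 rose and 1 fell, 8 and 1 of them by at least 2-fold, and the median was 1.20 at day 7 against -0.05 at day 3. Alpl, the alkaline phosphatase that frees phosphate, had 897, 879, 737 and 687 CPM in the KO-labelled libraries, against 401, 402, 355 and 406 CPM in the WT libraries. Phospho1, the phosphatase that acts inside matrix vesicles, had 49.2, 49.5, 39.9 and 40.1 CPM, against 5.42, 4.92, 4.19 and 5.06 CPM in the WT libraries. Neither gene's groups overlapped. Slc20a1, a phosphate transporter, rose by 1.78 ± 0.05 on the log2 scale, and Enpp1, which makes the mineral inhibitor pyrophosphate, by 1.67 ± 0.10. Galnt3, which glycosylates and so protects the phosphate hormone FGF23, had 9.77, 8.76, 10.5 and 8.69 CPM in the KO-labelled libraries, against 0.0812, 0.238, 0.192 and 0.255 CPM in the WT libraries. The gene that fell was Smpd3, a sphingomyelinase needed for normal mineralisation, at 33.1 ± 4.05 CPM in the KO-labelled libraries and 227 ± 7.49 CPM in the WT libraries.

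Osteocyte genes took part in this. Dmp1, an acidic matrix protein of osteocytes, had 33.5, 38.9, 49.7 and 55.1 CPM in the KO-labelled libraries, against 8.42, 8.52, 7.51 and 12.2 CPM in the WT libraries, and all 4 KO-labelled libraries were above all WT libraries. Pdpn (podoplanin), a marker of early osteocytes, rose to 85.4 ± 2.58 CPM, against 26.2 ± 0.903 CPM in the WT libraries. Phex, an endopeptidase that restrains FGF23, stood at 5.83 ± 0.581 CPM in the KO-labelled libraries and 6.31 ± 0.225 CPM in the WT libraries and was not called (edgeR quasi-likelihood, adjusted p = 0.273).

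Among 17 bone matrix proteins 11 rose and 6 fell, with 7 and 3 past 2-fold. Spp1 (osteopontin), a phosphorylated matrix glycoprotein, had 5531, 4322, 6779 and 7058 CPM in the KO-labelled libraries, against 1778, 1634, 1933 and 2201 CPM in the WT libraries. Library 14 was the lowest of those labelled KO, and still above every WT library. Ibsp, bone sialoprotein, had 1291, 1207, 1153 and 972 CPM, against 467, 464, 420.2 and 449 CPM in the WT libraries. Bglap2, an osteocalcin gene, had 74.2 to 90.6 CPM in the KO-labelled libraries, against 4.03 to 5.66 CPM in the WT libraries, and its copy Bglap moved by 3.65 ± 0.11 on the log2 scale. These near-identical genes are uncertain singly. Ogn (osteoglycin) and Omd (osteomodulin), leucine-rich proteoglycans of bone, went the other way, at log2 fold changes of -1.94 ± 0.10 and -1.11 ± 0.15. Ostn, which encodes the peptide osteocrin, had 1491 counts in the KO-labelled libraries and 0 in the WT libraries, at least 510-fold higher if the WT libraries together are set at a floor of 3 counts.

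**Figure D2:**
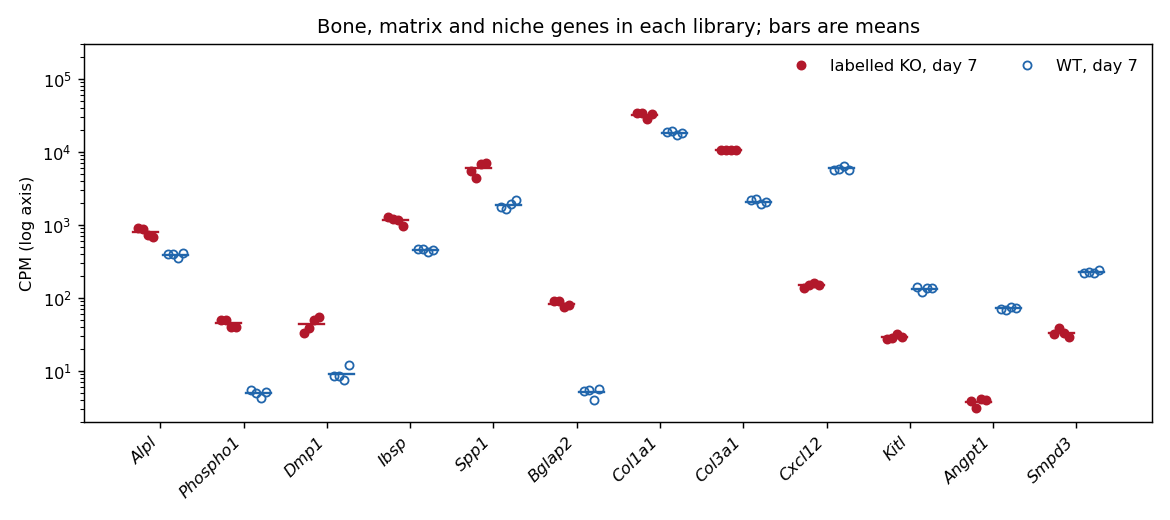
CPM on a log axis in each of the 4 KO-labelled libraries (left, filled) and the 4 WT libraries (right, open) for 12 bone, matrix and niche genes; bars mark group means. Alpl, Phospho1, Dmp1, Ibsp, Spp1, Bglap2, Col1a1 and Col3a1 are higher in every KO-labelled library, and Cxcl12, Kitl, Angpt1 and Smpd3 are lower.

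The transcription factors of the lineage had no common direction. Of 18 genes 8 rose and 8 fell, 4 and 5 by at least 2-fold. Runx2 stood at 187, 182, 173 and 169 CPM in the KO-labelled libraries, against 152, 142, 133 and 143 CPM in the WT libraries, a log2 fold change of 0.32 ± 0.04 (edgeR quasi-likelihood, adjusted p = 2.5e-08). Sp7 (osterix) stood at 153, 159, 141 and 126 CPM, against 182, 168, 157 and 183 CPM in the WT libraries, with overlapping groups. Its log2 fold change of -0.25 ± 0.06 was called with adjusted p = 0.000947 (edgeR quasi-likelihood), and it was positive with the authors' library sizes. The homeobox genes split: Dlx3 rose to 5.67 ± 0.506 CPM, against 0.24 ± 0.0795 CPM in the WT libraries, while Dlx5, Msx1 and Msx2 fell, at -0.85, -2.85 and -3.14 on the log2 scale. Atf4, which serves both osteoblast maturation and amino acid supply, rose to 700.2 ± 18.8 CPM, against 291 ± 7.68 CPM in the WT libraries. Among the antagonists Twist2 fell, at a log2 fold change of -1.25 ± 0.13, and Hey1, a Notch target, had 221 counts in the KO-labelled libraries and 3 in the WT libraries (KO to WT ratio 73.5, 95% counting interval 25.1 to 356).

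Collagen genes moved in both directions. Of 38 chains 19 rose and 17 fell, 9 and 13 by at least 2-fold, and the median was 0.11, -0.01 with total counts alone and -0.31 with each chromosome centred. Col1a1 and Col3a1, fibrillar chains of bone and connective tissue, rose. Col1a1 had 33710.4, 33589, 27999 and 32488 CPM in the KO-labelled libraries, against 18418, 19061, 16958 and 18128 CPM in the WT libraries. Col3a1 had 10602, 10628, 10514 and 10473 CPM, against 2163, 2224, 1910.1 and 2045 CPM in the WT libraries. Type I collagen is assembled from a pair of α1 chains and an α2 chain, and per unit of length Col1a1 stood at 1.21 ± 0.0657 times Col1a2 in the KO-labelled libraries and 1.35 ± 0.0255 times in the WT libraries (SD, n = 4 each; exact two-sided permutation test, p = 0.0286, adjusted p = 0.0429). No KO-labelled library reached the lowest WT library in this ratio. Col6a5, a chain of the microfibril-forming type VI collagen, had 0.556, 0.431, 0.32 and 0.511 CPM in the KO-labelled libraries, against 207, 200.2, 208 and 189 CPM in the WT libraries, and Col6a6 had 3 counts in the KO-labelled libraries against 568 in the WT libraries (WT to KO ratio 186, 95% counting interval 63.5 to 899.8). Col6a1 and Col6a2 fell, at -0.82 and -1.02 on the log2 scale, so all 4 type VI chains named here were lower. Col13a1, a transmembrane collagen, had 567 counts in the KO-labelled libraries and 1 in the WT libraries.

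Enzymes that modify collagen inside the cell mostly rose. Of 12 hydroxylase genes 7 rose and 4 fell, 4 and 1 by at least 2-fold. Of 8 chaperone and export genes 6 rose and 2 fell, 2 and 1 by at least 2-fold. P4ha1, the catalytic subunit of prolyl 4-hydroxylase, had 529.6, 615, 738 and 689.5 CPM in the KO-labelled libraries, against 157, 157, 160.2 and 161 CPM in the WT libraries. Libraries 15 and 16 were the highest, an order shared with the hypoxia genes below, among which P4ha1 is itself counted. Plod1, a lysyl hydroxylase, rose by 1.61 ± 0.04 on the log2 scale, and Plod2, which hydroxylates the telopeptides, stood at 137 ± 19.5 and 140.5 ± 5.62 CPM and was not called (edgeR quasi-likelihood, adjusted p = 0.675). Serpinh1 had 3419, 3405, 3349 and 3395 CPM in the KO-labelled libraries, against 868, 914, 874 and 926 CPM in the WT libraries. Of the crosslinking enzymes, Lox (lysyl oxidase) rose by a log2 fold change of 0.72 ± 0.06 but was not called with each chromosome centred, Loxl3 fell, at -1.94, and Loxl2 and Loxl4 were not called, at 0.06 and -0.05 (edgeR quasi-likelihood, adjusted p = 0.261 and 0.322). Pcolce2, an enhancer of propeptide removal, averaged 14.9 ± 0.978 CPM in the KO-labelled libraries and 0.247 ± 0.125 CPM in the WT libraries.

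The small leucine-rich proteoglycans, which bind collagen fibrils, were counted as 6 higher and 5 lower of 11. Lum (lumican) had 40.7, 36.1, 41.1 and 35.7 CPM in the KO-labelled libraries, against 1.33, 1.56, 0.905 and 1.27 CPM in the WT libraries, and Prelp rose to 106 ± 8.19 CPM, against 9.01 ± 1.11 CPM in the WT libraries. Dcn (decorin) and Fmod (fibromodulin) rose by log2 fold changes of 5.54 ± 0.09 and 2.57 ± 0.06. These 4 genes rose in the same libraries in which the related Ogn and Omd fell.

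Adhesion genes changed in both directions. Of 18 thrombospondin, laminin and fibronectin genes 11 rose and 6 fell. Lama3, a laminin chain of epithelial basement membrane, had 29.5, 28.9, 28.9 and 35.5 CPM in the KO-labelled libraries, against 1.14, 1.59, 1.15 and 1.02 CPM in the WT libraries. Lama2 and Lama5 rose by log2 fold changes of 2.60 ± 0.06 and 3.88 ± 0.09. Comp, the oligomeric matrix protein of cartilage and tendon, rose to 38.7 ± 1.78 CPM in the KO-labelled libraries, against 1.64 ± 0.357 CPM in the WT libraries. Its relative Thbs4 averaged 11.4 ± 1.16 and 0.0475 ± 0.0778 CPM in the same order, while Thbs1 and Thbs2 fell, at -1.39 and -1.79 on the log2 scale. Among 23 integrin chains 9 rose and 13 fell (median -0.31, 0.27 with the authors' library sizes). Itga10, a collagen receptor of cartilage, had 335, 317, 283 and 295 CPM in the KO-labelled libraries, against 47.9, 49.6, 46.8 and 47.7 CPM in the WT libraries. Itga6, a laminin receptor chain, rose to 42.1 ± 2.58 CPM, against 7.15 ± 0.837 CPM in the WT libraries, and Itga9, a tenascin receptor chain, fell to 10.9 ± 1.05 CPM, against 74.2 ± 1.63 CPM in the WT libraries.

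Matrix proteases and their inhibitors mostly fell, 20 of 35 against 13 that rose, and 16 against 5 by at least 2-fold, but with the authors' library sizes 17 fell and 16 rose. Mmp13, the collagenase of bone, had 213, 176, 201 and 163 CPM in the KO-labelled libraries, against 1128, 1088, 1063 and 1002 CPM in the WT libraries. Serpine2, which inhibits thrombin and plasminogen activators, had 96.7, 94.4, 110.2 and 100.1 CPM, against 1639, 1648, 1682 and 1695 CPM in the WT libraries. The gelatinase Mmp2 and the membrane-bound collagenase Mmp14 were among those that rose, by log2 fold changes of 0.53 ± 0.03 and 0.87 ± 0.04. Of the 25 metalloproteases alone 10 rose and 14 fell. Their summed level was 4529 to 4956 CPM in the KO-labelled libraries and 4409 to 4598 CPM in the WT libraries. Timp3, an inhibitor, stood at 1229 ± 83.7 and 1260.1 ± 98.3 CPM and was not called (edgeR quasi-likelihood, adjusted p = 0.466).

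Most cartilage genes rose, and the main cartilage collagen fell. Of 14 measured genes 9 rose and 3 fell, 8 and 3 by at least 2-fold, and the median was 1.89 against -0.63 at day 3. Col2a1, the type II collagen chain, had 16.1, 17.3, 15 and 16.2 CPM in the KO-labelled libraries, against 799, 844, 812 and 779 CPM in the WT libraries. Acan (aggrecan), the proteoglycan that normally accompanies it, had 819 counts in the KO-labelled libraries and 0 in the WT libraries, at least 278-fold higher with the WT libraries set at that floor. Col10a1, the collagen of hypertrophic cartilage, rose to 9.73 ± 1.22 CPM, against 1.08 ± 0.287 CPM in the WT libraries. Sox6 and the link protein gene Hapln1 rose by log2 fold changes of 5.18 and 4.25. Sox9, the master factor of cartilage, differed little, at 33.3 ± 3.96 CPM and 30 ± 0.999 CPM with overlapping groups (edgeR quasi-likelihood, adjusted p = 0.0192, 0.116 without library 13 and 0.0939 without library 14).

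Of 18 adipocyte genes 8 rose and 10 fell (median -0.57, 0.00 with the authors' library sizes). The regulators Pparg and Zfp423 fell, at log2 fold changes of -1.16 ± 0.06 and -5.46 ± 0.10, and Klf15, which also answers glucocorticoids, rose to 44.8 ± 0.881 CPM, against 3.62 ± 0.544 CPM in the WT libraries. Dgat2, which completes triglyceride synthesis, had 40.7, 35.6, 36.5 and 41.3 CPM in the KO-labelled libraries, against 1.44, 1.69, 1.43 and 1.5 CPM in the WT libraries. Plin4, a lipid droplet coat protein, rose to 24.2 ± 2.37 CPM, against 2.3 ± 0.67 CPM in the WT libraries. Fabp4, a fatty acid carrier, fell to 4.84 ± 0.518 CPM, against 37.1 ± 2.4 CPM in the WT libraries. Adipoq (adiponectin), the fat cell hormone, had 1 count in the KO-labelled libraries and 417 in the WT libraries (WT to KO ratio 408, 95% counting interval 73.2 to 16099). Synthesis and uptake genes thus did not move as a block.

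Marrow niche factors, through which stromal cells support blood stem cells, fell almost throughout. Of 9 factors 8 fell, 7 by at least 2-fold, and Spp1 alone rose, with a median of -1.95. Cxcl12 had 135, 152, 162 and 149 CPM in the KO-labelled libraries, against 5725, 5885, 6351 and 5693 CPM in the WT libraries. Kitl, which encodes stem cell factor, had 27.3, 27.9, 32.2 and 29.1 CPM, against 139.7, 122, 135 and 135 CPM in the WT libraries. Angpt1 (angiopoietin-1) had 3.84, 3.07, 4.08 and 4.03 CPM, against 71, 67.7, 75.9 and 73.1 CPM in the WT libraries. None of these groups overlapped. The progenitor markers were less uniform, with 8 of 19 higher and 11 lower. Ebf1 and Ebf3, transcription factors of the adipogenic CXCL12-rich stromal cell, fell, at -2.96 and -9.39 on the log2 scale, Pdgfra at -1.47, and Thy1 to 0.0608 ± 0.0374 CPM, against 14 ± 1.2 CPM in the WT libraries. Lepr, the leptin receptor of the same cells, rose to 10.3 ± 0.916 CPM, against 1.83 ± 0.304 CPM in the WT libraries, and Gli1, a mediator of hedgehog signals, to 7.02 ± 1.01 CPM, against 0.977 ± 0.363 CPM.

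ER chaperones rose as a group. All 25 measured chaperones and folding enzymes were higher in the KO-labelled libraries, 18 of them by at least 2-fold, with a median of 1.53 against 0.29 at day 3. The unfolded protein response raises such genes through ATF6 and XBP1, which bind an ER stress element in the promoter. The element was searched as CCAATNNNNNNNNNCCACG on both strands of RefSeq promoters (250 bases before to 50 after each start site, build GRCm38.p6). Among the 20 chaperone genes with a promoter there, 7 held it (35%), against 16 of all 10166 measured genes with a promoter (0.157%). Stretches of 59 bases around the element are shown for these 7 genes, with the element in capitals, because Hspa5, Hsp90b1 and Calr among them lead the increase in CPM. CCAAT at the left end marks the element on the gene's own strand, and CGTGG at the left end marks it on the opposite strand.
Hspa5: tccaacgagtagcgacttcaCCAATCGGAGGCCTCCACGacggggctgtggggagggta
Hsp90b1: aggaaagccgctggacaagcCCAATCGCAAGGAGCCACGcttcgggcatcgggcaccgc
Calr: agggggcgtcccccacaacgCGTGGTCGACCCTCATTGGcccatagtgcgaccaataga
Canx: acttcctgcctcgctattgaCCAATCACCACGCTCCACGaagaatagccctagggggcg
Pdia6: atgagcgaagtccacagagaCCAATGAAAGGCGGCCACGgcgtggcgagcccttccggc
Dnajc3: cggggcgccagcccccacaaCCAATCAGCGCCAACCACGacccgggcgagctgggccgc
Creld2: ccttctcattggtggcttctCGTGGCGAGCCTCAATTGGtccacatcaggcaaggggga

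These stretches lie at chr2:34772005-34772063 (plus strand, Hspa5), chr10:86705618-86705676 (minus strand, Hsp90b1), chr8:84847055-84847113 (minus strand, Calr), chr11:50325780-50325838 (minus strand, Canx), chr12:17266471-17266529 (plus strand, Pdia6), chr14:118937807-118937865 (plus strand, Dnajc3) and chr15:88819500-88819558 (plus strand, Creld2). The last base of the element lay between positions -194 (Hsp90b1) and -47 (Hspa5) relative to the start site, and Hsp90b1 held another copy nearer to it. A match describes letters only and says nothing of binding. Dnajb11 held the related element ATTGGNCCACG, found in 8 of the 10166 genes (0.0787%), and 12 of the 20 chaperone genes held neither.

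Hspa5 (BiP), which holds unfolded chains in the ER lumen, had 7418, 6557, 6691 and 6983 CPM in the KO-labelled libraries, against 781, 782, 800.2 and 863 CPM in the WT libraries. Hsp90b1 (GRP94) had 4567, 4650.1, 5247 and 4976 CPM, against 1214, 1202, 1205 and 1272 CPM in the WT libraries. Calr (calreticulin), a lectin chaperone, had 3148, 3344, 3168 and 3212 CPM, against 952, 1009.5, 1005 and 1008 CPM in the WT libraries. The 4 KO-labelled libraries lay close together and far above all WT libraries for each of these genes. Per length Hspa5 stood at 2642 RPKM in the KO-labelled libraries and 308 RPKM in the WT libraries, and Hsp90b1 at 1762 and 443 RPKM. Canx (calnexin), Pdia6, Dnajc3 and Creld2, whose promoters are shown above and which were named for them, rose by 0.45 ± 0.03, 1.53 ± 0.03, 1.21 ± 0.03 and 2.51 ± 0.05 on the log2 scale. Manf and Sdf2l1, cofactors of BiP, rose by log2 fold changes of 2.63 ± 0.04 and 2.93 ± 0.05. The ER oxidase genes, which feed disulfide bonds to folding enzymes, rose as well: Ero1l by a log2 fold change of 2.84 ± 0.15 and Ero1lb by 2.59 ± 0.08.

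Sensors and degradation genes moved less than the chaperones. Of 9 sensors and transcription factors 7 rose and 1 fell, with a median of 0.40, and Xbp1 rose to 297 ± 7.29 CPM, against 126 ± 3.27 CPM in the WT libraries. Of 14 genes of ER-associated degradation 10 rose and 2 fell. Derl3, a channel component, averaged 4.2 ± 0.674 CPM in the KO-labelled libraries and 0.027 ± 0.0221 CPM in the WT libraries, and its relative Derl2 stood at 41.9 ± 1.95 and 44.5 ± 1.65 CPM and was not called (edgeR quasi-likelihood, adjusted p = 0.058). Further along the secretory path, 34 of 56 genes of translocation, glycosylation and vesicle export rose, 7 by at least 2-fold, and 17 fell. With each chromosome centred 43 rose and 8 fell, and with the authors' library sizes 55 rose and 0 fell. The 2-fold set included Ssr1 and Sec11c, of the translocon and signal peptidase, Stt3b, which transfers N-glycans, and Lman1, a cargo receptor, at log2 fold changes of 1.24, 1.61, 1.26 and 1.27.

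The integrated stress response, in which eIF2 phosphorylation favours translation of ATF4, was mostly higher. All 7 of its transcription factors rose by at least 2-fold, and of 17 effectors 14 rose and 3 fell. Of all 30 genes 26 rose, 20 by at least 2-fold, and 4 fell, with a median of 2.38 against 1.21 at day 3. The members, with Cdsn and Avil among the effectors, were chosen with earlier results of these data known. The counts therefore describe the list and do not test the pathway. Ddit3 (CHOP) had 419, 369.9, 326 and 375 CPM in the KO-labelled libraries, against 30.4, 34, 29.9 and 31 CPM in the WT libraries. Trib3, a pseudokinase that restrains ATF4 and CHOP, had 319.8, 300.1, 276 and 301 CPM, against 2.44, 3.44, 2.49 and 2.38 CPM in the WT libraries. Stc2, a secreted glycoprotein induced by ER stress and hypoxia, had 28.3, 25.1, 23.2 and 27.5 CPM, against 0.108, 0.0794, 0.0822 and 0.113 CPM in the WT libraries. No groups overlapped among the 3. Avil (advillin), an actin-binding protein, rose to 317 ± 18.2 CPM, against 1.38 ± 0.142 CPM in the WT libraries. Ppp1r15a, whose product GADD34 reverses eIF2 phosphorylation, rose by a log2 fold change of 3.60 ± 0.07. The kinases and phosphatase subunits were otherwise modest, with a median of 0.20 over 6 genes. Fgf21 had 511 counts in the KO-labelled libraries and 0 in the WT libraries, at least 174-fold higher with the WT libraries set at that floor.

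The element TGATGNAAT, bound by C/EBP and ATF factors, was in the promoters of 2 of 25 genes of this list (8.0%), against 0.571% of all measured genes with a promoter. They were Fgf21 and Nupr1, and 49 bases around each match are shown with it in capitals, on the strand opposite to the letters searched.
Fgf21: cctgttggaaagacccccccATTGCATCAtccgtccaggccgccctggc
Nupr1: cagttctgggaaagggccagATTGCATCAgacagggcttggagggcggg

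They lie at chr7:45615602-45615650 and chr7:126625553-126625601, both on the minus strand. Nupr1, a small nuclear stress protein named for this match, had a log2 fold change of 2.31 ± 0.04.

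Amino acid genes, which ATF4 controls, rose as a block. Of 30 genes of synthesis and transport 28 rose, 25 by at least 2-fold, and 1 fell (median 2.32, 1.27 at day 3). Aldh1l2, a mitochondrial enzyme of folate metabolism, had 787, 741, 755 and 777 CPM in the KO-labelled libraries, against 49.5, 52.2, 49.1 and 50.2 CPM in the WT libraries. Slc6a9, a glycine transporter, had 469.7, 427, 358 and 395 CPM, against 15.7, 16, 15.1 and 14.8 CPM in the WT libraries. Glycine is the most common residue of collagen. Phgdh, which opens serine synthesis, and Asns, asparagine synthetase, rose by log2 fold changes of 2.31 ± 0.04 and 2.79 ± 0.03. The cystine transporter Slc7a11 averaged 35 ± 5.21 CPM in the KO-labelled libraries and 0.494 ± 0.157 CPM in the WT libraries, and the cationic transporter Slc7a3 35.6 ± 3.18 and 1.81 ± 0.248 CPM. The gene that fell was Cbs, which starts the conversion of homocysteine to cysteine, at 0.763 ± 0.106 CPM in the KO-labelled libraries and 17 ± 1.41 CPM in the WT libraries. Slc36a4 was not called (log2 fold change 0.02, edgeR quasi-likelihood, adjusted p = 0.707). Of the 23 genes of this list with a promoter 1 held TGATGNAAT (4.35%), against 0.571% of all measured genes with a promoter.

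Enzymes that load tRNAs differed by compartment. Of 20 cytosolic aminoacyl-tRNA synthetases 17 rose, 11 by at least 2-fold, and 3 fell, with a median of 1.51. Of 17 mitochondrial ones 9 rose, 1 by at least 2-fold, and 3 fell, with a median of 0.33. Nars, the asparagine enzyme, had 918, 879, 889 and 901 CPM in the KO-labelled libraries, against 158, 162, 157 and 161 CPM in the WT libraries. Lars, Yars, Iars, Aars and Gars rose by log2 fold changes of 2.31, 2.23, 1.89, 1.85 and 1.83. The mitochondrial Aars2, Mars2, Tars2, Vars2 and Wars2 were not called, with log2 fold changes of -0.13 to 0.00. The difference between compartments was not tested.

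**Figure D3:**
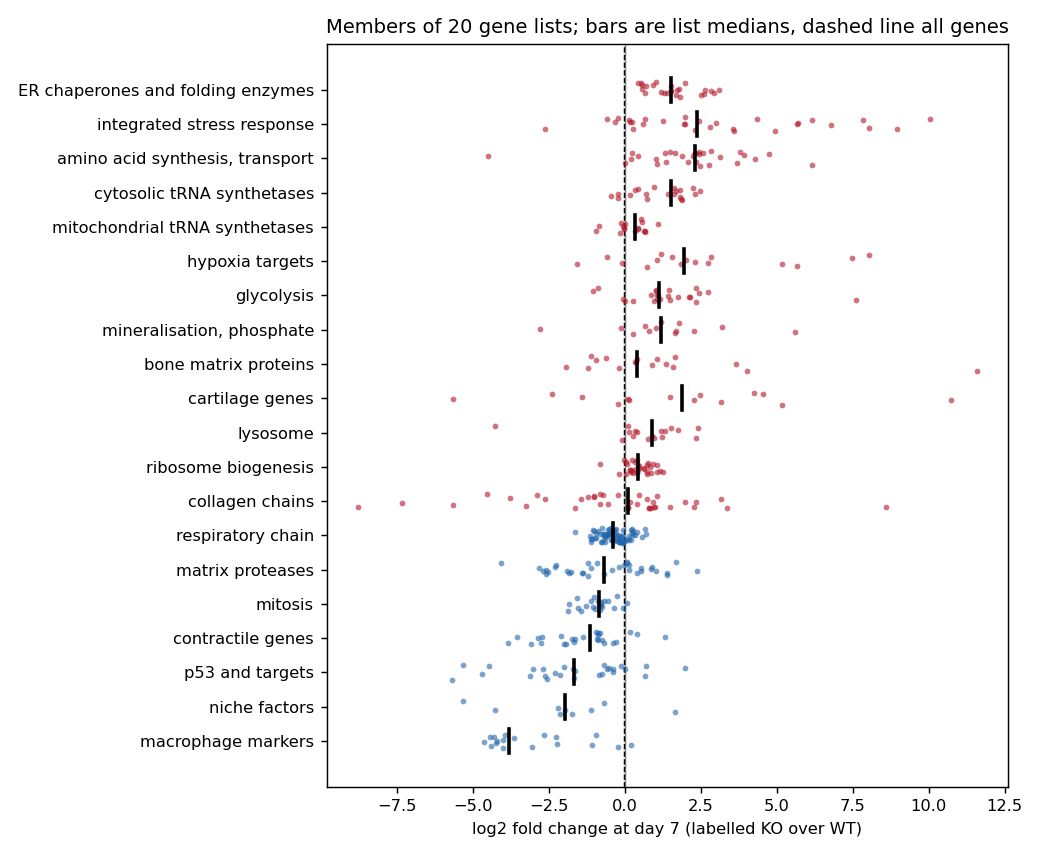
Log2 fold change at day 7 of every measured member (points) of 20 gene lists, with the median of each list (bar; points are red where it is above 0 and blue where it is below) and the median of all genes, -0.03 (dashed line); positive values are higher in the KO-labelled libraries. The members of the chaperone list all lie above 0, and those of the niche, p53, contractile and macrophage lists mostly below it.

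Glycolytic genes rose. Of 24 measured genes 20 rose and 2 fell, 17 and 1 by at least 2-fold, with a median of 1.11. Slc16a3, which exports lactate, had 61, 81.8, 120.0 and 123 CPM in the KO-labelled libraries, against 0.298, 0.529, 0.411 and 0.735 CPM in the WT libraries. Pgk1, phosphoglycerate kinase, had 534, 718, 897 and 849 CPM, against 109, 115, 119.9 and 109.8 CPM in the WT libraries. Library 13 was the lowest of those labelled KO for both genes, and still above every WT library. Slc2a1, the glucose carrier GLUT1, and Aldoa and Ldha, aldolase and lactate dehydrogenase, rose by log2 fold changes of 2.44 ± 0.11, 2.14 ± 0.06 and 1.76 ± 0.09. Pdk1, which holds pyruvate out of the mitochondrion, had 82.1, 102, 143 and 134 CPM in the KO-labelled libraries, against 23.8, 22.5, 22 and 22.6 CPM in the WT libraries. Hk1 (hexokinase) and Eno2 (an enolase) were not called, at log2 fold changes of 0.02 and -0.07 (edgeR quasi-likelihood, adjusted p = 0.644 and 0.168).

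Targets of the hypoxia-inducible factors rose in 13 of 16 members and fell in 2, 12 and 1 by at least 2-fold (median 1.94, 0.80 at day 3). Car9, a carbonic anhydrase at the cell surface, had 44.4, 68.1, 89 and 79.7 CPM in the KO-labelled libraries, against 0.352, 0.37, 0.356 and 0.481 CPM in the WT libraries. Bnip3, a mitophagy receptor, had 63.4, 78.7, 137 and 114 CPM, against 15.2, 15.2, 14.3 and 14.4 CPM in the WT libraries. Vegfa, the vascular growth factor, had 519, 514, 541 and 540.3 CPM, against 104, 110.5, 108 and 106 CPM in the WT libraries. Vegfa was even between the KO-labelled wells, unlike Car9 and Bnip3. Egln3, an oxygen-sensing prolyl hydroxylase that the factors induce, rose to 40.7 ± 15.2 CPM, against 1.15 ± 0.191 CPM in the WT libraries, and Ankrd37 to 11.9 ± 3.81 CPM, against 0.328 ± 0.0875 CPM. Of the factors and their regulators Epas1 (HIF-2α) fell to 0.381 ± 0.137 CPM in the KO-labelled libraries, against 11.7 ± 0.939 CPM in the WT libraries, and Arnt, Hif1an and Vhl were not called, at log2 fold changes of -0.05, -0.00 and 0.07. Car12, another carbonic anhydrase, was not called either (log2 fold change -0.08). The core letters of the hypoxia element, ACGTG, were in 8 of 12 target promoters (66.7%), against 28.8% of all measured genes with a promoter.

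The KO-labelled wells differed among themselves in these pathways. Over the 16 hypoxia targets library 13 was the lowest of the 4 in 12, and over the 24 glycolytic genes in 20. Over all 9298 genes with at least 10 CPM in these libraries it was the lowest in 22.1%. The coefficient of variation between these wells had a median of 14.3% over the hypoxia targets and 13.3% over the glycolytic genes, against 5.12% over all those genes and 4.53% over the unfolded protein response. In the WT wells the same lists had medians of 4.20 and 3.34%. Of the 8 genes with the highest coefficient of variation within the KO-labelled group, Bnip3, Slc16a3, Car9, Pdk1 and Ero1l belong to these lists. Apln (apelin), a peptide hormone also raised by hypoxia, had 55.8, 72.8, 103 and 91.6 CPM in the KO-labelled libraries, against 16.4, 17.3, 18.1 and 19.5 CPM in the WT libraries. H19, an imprinted noncoding RNA, had 126, 159.9, 252 and 226 CPM, against 0.0271, 0.0529, 0.0548 and 0.0283 CPM in the WT libraries. Tmem45a had 48, 52.9, 77.3 and 75.2 CPM, against 22.5, 22.7, 21.5 and 23.4 CPM in the WT libraries. All 3 were lowest in library 13 and highest in library 15. Every KO-labelled well was above every WT well for H19, Apln, Car9, Bnip3, Slc16a3 and Pdk1. Uneven KO-labelled wells were not confined to hypoxia and glycolysis. Over 30 genes of the integrated stress response library 15 was the lowest in 22, against 3129 of the 9298 genes. Over 13 genes of mineralisation and phosphate handling the median coefficient of variation was 9.96% in the KO-labelled wells and 6.11% in the WT wells.

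**Figure D4:**
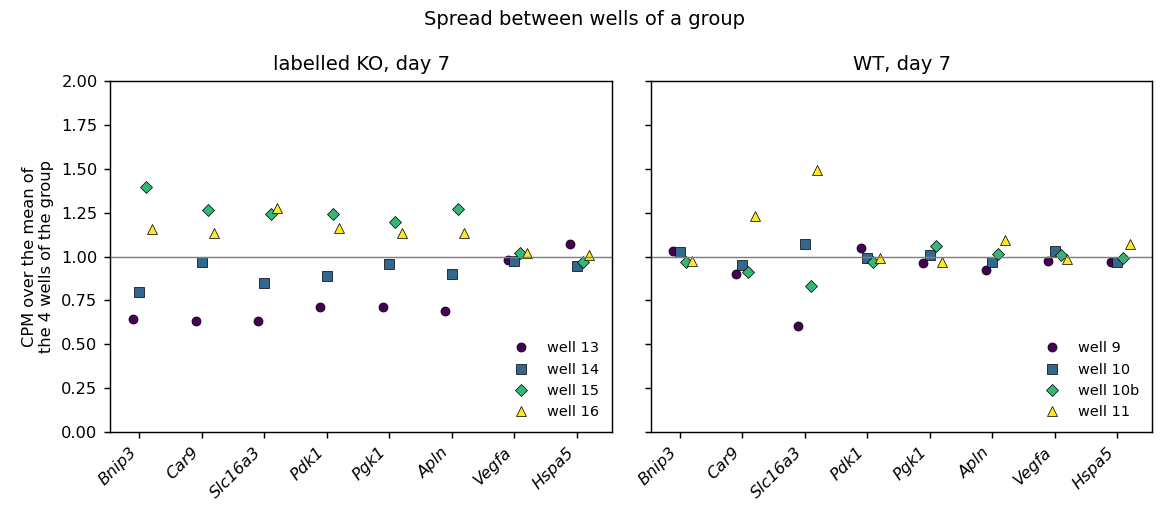
CPM of 8 genes in each of the 4 KO-labelled wells (left) and each of the 4 WT wells (right), divided by the mean of the 4 wells of the same group; a marker stands for a well. Among the KO-labelled wells Bnip3, Car9, Slc16a3, Pdk1, Pgk1 and Apln are lowest in well 13 and highest in wells 15 or 16, while Vegfa and Hspa5 vary little; Car9 and Slc16a3 are under 1 CPM in all WT wells.

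Vascular ligands and receptors split, with 6 of 10 higher and 4 lower. Besides Vegfa, Pgf (placental growth factor) rose by a log2 fold change of 3.16 ± 0.11, and the receptor genes Kdr and Flt1 rose to 13.2 ± 0.519 and 4.25 ± 0.719 CPM in the KO-labelled libraries, against 0.632 ± 0.168 and 0.245 ± 0.0827 CPM in the WT libraries. Figf (VEGF-D) and the co-receptor Nrp1 fell, at log2 fold changes of -2.61 and -1.98.

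Of 33 genes of ribosome biogenesis 27 rose and 2 fell, but only 4 rose by at least 2-fold. These were Wdr43, Nop16, Nop14 and Rrp9, nucleolar factors of rRNA processing, at log2 fold changes of 1.28 ± 0.03, 1.17 ± 0.05, 1.05 ± 0.03 and 1.05 ± 0.05. Myc, which drives the programme, rose to 168 ± 5.68 CPM, against 94.3 ± 4.18 CPM in the WT libraries. Of 77 cytosolic ribosomal protein genes 34 rose and 25 fell, all by less than 2-fold, with log2 fold changes from -0.88 to 0.98. The split turned with the scaling, with 26 higher and 40 lower under total counts alone and 68 higher and 3 lower under the authors' library sizes, 17 of the 68 by at least 2-fold. Rpl13a moved most upward (log2 fold change 0.98 ± 0.04) and Rpl37a most downward (-0.88 ± 0.05) among the members named by the rule. Retained copies of such genes are common in the genome, and the treatment of reads that match several copies was not given in the sources used here.

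Genes of the respiratory chain were lower. Of 75 nuclear-encoded subunits 53 fell, 7 by at least 2-fold, and 14 rose (median -0.37), a direction that turned with the authors' library sizes (median 0.21). Complex I held 28 of the genes that fell, and ATP synthase 12 of 15. Ndufa4 had 63.9, 64.9, 61.6 and 62.8 CPM in the KO-labelled libraries, against 190.5, 213, 211 and 179.7 CPM in the WT libraries. Its product is a subunit of cytochrome c oxidase, despite the complex I name. Atp5l, Ndufb7 and Ndufa5 fell, at -1.14, -1.10 and -1.10 on the log2 scale. Cycs (cytochrome c) was not called, at 49.2 ± 2.1 and 49.6 ± 1.81 CPM.

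Proteasome subunits were split, 11 higher and 17 lower of 34, and only Psmd8 (log2 fold change 1.44 ± 0.04) and Psma4 (-1.07 ± 0.04) moved by 2-fold. Lysosomal genes were higher, 15 of 17 with a median of 0.89 against -0.37 at day 3. Ctsl (cathepsin L) had 793, 847, 829 and 838 CPM in the KO-labelled libraries, against 152, 152, 155 and 156 CPM in the WT libraries. Npc1, which exports cholesterol from lysosomes, rose by a log2 fold change of 2.36 ± 0.04. Ctsh (cathepsin H) alone fell, to 3.25 ± 0.343 CPM, against 62 ± 2.12 CPM in the WT libraries. Sqstm1 (p62), an autophagy receptor, rose by a log2 fold change of 1.38 ± 0.04, and of 17 autophagy genes 10 rose and 3 fell.

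Antioxidant genes of the NRF2 pathway showed no common direction, with 7 of 17 higher and 7 lower. Nfe2l2, which encodes NRF2, and Hmox1, heme oxygenase, rose by log2 fold changes of 1.38 ± 0.03 and 1.13 ± 0.04, while Gclc, which limits glutathione synthesis, and the glutathione transferases Gsta4 and Gstm2 fell, at -1.96, -3.00 and -2.57. Sterol and fatty acid synthesis genes fell in 19 of 35 cases, 6 by at least 2-fold, and rose in 10, and their median of -0.15 was 0.43 with the authors' library sizes. Hmgcs1 and Scd2 were not called, at log2 fold changes of -0.01 and 0.01 (edgeR quasi-likelihood, adjusted p = 0.682 and 0.867). With each chromosome centred Hmgcs1 was called lower, at -0.72, and with the authors' library sizes higher, at 0.57.

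Cell cycle genes were mostly lower at day 7. Of 63 genes 47 fell and 11 rose, but with the authors' library sizes 29 fell and 25 rose. Of 23 mitotic genes 21 fell, 9 of them by at least 2-fold, and 2 were not called, with a median of -0.83 against 0.63 at day 3. Of 25 replication genes 19 fell and 4 rose. Mki67 had 62.2, 63.3, 65.4 and 63.6 CPM in the KO-labelled libraries, against 125, 117, 109 and 112 CPM in the WT libraries. Rrm2, which makes deoxynucleotides, had 17.1, 19.6, 21.9 and 19.1 CPM, against 143, 139.7, 146 and 153 CPM in the WT libraries. Birc5 (survivin) had 14.6, 14.1, 14.3 and 12.9 CPM, against 54.1, 52.2, 49.3 and 43.5 CPM in the WT libraries. All KO-labelled wells were below all WT wells for the 3 genes. Ccnb1 and Tpx2 were the mitotic genes not called (log2 fold changes 0.08 and -0.07, edgeR quasi-likelihood, adjusted p = 0.239 and 0.112). With each chromosome centred Ccnb1 was called lower, at -0.63, and with the authors' library sizes higher, at 0.66. The WT wells were themselves uneven here, since Cenpf, Hmmr and Cdca3, all mitotic, were among the 8 genes of the highest coefficient of variation within that group (12.9, 12.5 and 13.9%). Cenpf had 22, 23.1, 26.5 and 23.2 CPM in the KO-labelled libraries, against 73.4, 69.4, 56 and 58.9 CPM in the WT libraries, and the groups did not overlap.

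Inhibitors of the cycle were split. Cdkn2a, which encodes p16 and p19ARF, rose to 187 ± 12.4 CPM, against 81.6 ± 3.64 CPM in the WT libraries. Cdkn1c (p57) rose to 5.89 ± 0.625 CPM, against 0.0338 ± 0.0331 CPM in the WT libraries. Cdkn1a (p21), a p53 target, fell, at -0.37 on the log2 scale, and rose with the authors' library sizes. Trp53 itself was not called, with 167, 164, 142 and 147 CPM in the KO-labelled libraries, against 156, 161, 153 and 148 CPM in the WT libraries (edgeR quasi-likelihood, adjusted p = 0.906). This depended on the scaling. Its log2 fold change was called at 0.46 with each chromosome centred, 0.58 with the authors' library sizes and -0.12 with total counts alone. Of 27 genes of the p53 list 23 fell and 3 rose, 15 by at least 2-fold, with a median of -1.67. Ccng1 had 46.5, 49.8, 59.5 and 52.5 CPM in the KO-labelled libraries, against 1136, 1104, 1174 and 1137 CPM in the WT libraries. Zmat3, an RNA-binding target, had 32.5, 32.9, 31.6 and 33.4 CPM, against 270.0, 256, 263 and 269 CPM in the WT libraries. Fas, the death receptor, and Phlda3, an inhibitor of AKT, fell, at log2 fold changes of -5.30 ± 0.08 and -3.10 ± 0.04. The p53 direction was present at day 3 as well, where Ccng1 stood at -4.47, Zmat3 at -2.64 and Fas at -4.23 on the log2 scale.

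Contractile and cytoskeletal genes fell in 23 of 26 members and rose in 3, 13 and 1 by at least 2-fold, with a median of -1.16 against -0.17 at day 3. Acta2 had 830.3, 931, 903 and 905 CPM in the KO-labelled libraries, against 2639, 2854, 2826 and 2866 CPM in the WT libraries. Tagln (transgelin), a smooth muscle actin-binding protein, had 122, 137, 148 and 149.8 CPM, against 431, 471, 480.2 and 478 CPM in the WT libraries. Tpm1 had 623, 681, 699 and 648 CPM, against 2647, 2735, 2595 and 2605 CPM in the WT libraries. None of these groups overlapped. Mylk and Lmod1, a kinase of myosin and an actin nucleator, fell, at log2 fold changes of -3.09 ± 0.04 and -2.72 ± 0.05, and Myocd (myocardin), the coactivator of serum response factor (SRF), at -2.84 ± 0.14. SRF binds the CArG box, which was found in 5 of 20 contractile promoters (25.0%), against 1.59% of all measured genes with a promoter. The letters searched for the box are the same on both strands. It stands in capitals in 50 bases, read on the gene's strand, from the genes that held it at a single place. They were chosen to show it and include the genes Cnn2, Myl9, Myl6 and Vcl.
Cnn2: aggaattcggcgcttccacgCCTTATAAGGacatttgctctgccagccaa
Myl9: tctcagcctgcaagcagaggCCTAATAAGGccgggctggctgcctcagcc
Myl6: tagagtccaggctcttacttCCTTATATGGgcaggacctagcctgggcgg
Vcl: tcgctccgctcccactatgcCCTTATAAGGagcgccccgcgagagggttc

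They lie at chr10:79988524-79988573 (plus strand, Cnn2), chr2:156775283-156775332 (plus strand, Myl9), chr10:128493030-128493079 (minus strand, Myl6) and chr14:20929151-20929200 (plus strand, Vcl). The myosin light chains Myl9 and Myl6 had log2 fold changes of -1.92 ± 0.04 and -0.87 ± 0.04, the calponin Cnn2 of -1.38 ± 0.04 and the adhesion protein vinculin, Vcl, of -1.67 ± 0.03, and Srf, which held the box at a pair of places, of -0.73 ± 0.04.

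Targets of the mechanosensitive coactivators YAP and TAZ were less uniform, and of the whole pathway 9 of 23 rose and 13 fell. Ctgf had 50.2, 49.5, 50.8 and 46.5 CPM in the KO-labelled libraries, against 562, 587, 573 and 563 CPM in the WT libraries, and Cyr61 fell, at a log2 fold change of -2.79 ± 0.04. Both encode matrix-associated CCN proteins. Ankrd1 and the receptor kinase gene Axl rose, to 48 ± 4.43 and 412 ± 19.6 CPM, against 1.15 ± 0.23 and 145 ± 3.79 CPM in the WT libraries. Immediate early and AP-1 genes rose in 12 of 17 members and fell in 3, 6 and 1 by at least 2-fold. Klf4 had 153, 137, 131 and 141 CPM in the KO-labelled libraries, against 16.1, 15.8, 14.8 and 15.6 CPM in the WT libraries. Jund and Maff, subunits of dimeric bZIP factors, rose by log2 fold changes of 1.53 ± 0.06 and 2.39 ± 0.09, and Fosl1 and Fosb were not called, at -0.01 and 0.03.

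Wnt genes were split, 21 higher and 27 lower of 51, and the 12 secreted or surface antagonists were divided evenly. Sfrp1, which binds Wnt ligands, had 10.7, 10.3, 12.6 and 10.1 CPM in the KO-labelled libraries, against 494, 506, 585 and 516 CPM in the WT libraries. Sfrp4 and Dkk2 went the other way, with 1142 and 713 counts in the KO-labelled libraries and 2 and 6 in the WT libraries. The summed CPM of the antagonists was 504 to 533 in the KO-labelled libraries and 1815 to 1943 in the WT libraries. Axin2, a general target of β-catenin, fell to 11.9 ± 1.01 CPM, against 39 ± 1.34 CPM in the WT libraries, and Lef1 was not called (log2 fold change -0.07). Rspo1, an R-spondin that amplifies Wnt signals, rose to 3.09 ± 0.217 CPM, against 0.109 ± 0.0291 CPM in the WT libraries.

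BMP and TGF-β genes rose in 22 of 56 members and fell in 30. The ligands exchanged members. Bmp2 had 19.7, 17, 18.3 and 16.2 CPM in the KO-labelled libraries, against 4.09, 3.28, 2.06 and 3.45 CPM in the WT libraries. Bmp3, an antagonistic member made by osteoblasts, had 15.3, 17.8, 18.9 and 15.7 CPM, against 0.0542, 0.0265, 0.0274 and 0.113 CPM in the WT libraries. Bmp5 had 0.0505, 0.0861, 0.107 and 0.0959 CPM, against 45, 43.4, 39.3 and 44.1 CPM in the WT libraries. Bmp2 and Bmp3 were thus higher and Bmp5 lower in every KO-labelled library. Bmp4 and Gdf10 fell, at log2 fold changes of -1.11 ± 0.06 and -6.68 ± 0.35, and Bmp8a rose by 1.32 ± 0.10. The receptor gene Acvrl1 (ALK1) fell to 0.801 ± 0.13 CPM, against 31.6 ± 0.805 CPM in the WT libraries, and Bmpr1a and Tgfbr1 were not called, at log2 fold changes of -0.08 and -0.09. With each chromosome centred Tgfbr1 was called lower, at -0.70, and with the authors' library sizes higher, at 0.49. Of the direct targets Smad6 fell, at a log2 fold change of -1.61 ± 0.06 and Id1 at -0.33 ± 0.07 with overlapping groups, and Id1 was positive with the authors' library sizes.

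Parathyroid hormone genes rose in 11 of 21 members and fell in 9. Pth1r, the receptor in osteoblasts, had 169.7, 179, 145 and 141 CPM in the KO-labelled libraries, against 30.3, 31.1, 25.9 and 30.9 CPM in the WT libraries. Rgs2, which limits its G protein signal, and Nr4a2, a nuclear receptor induced by cAMP, rose by log2 fold changes of 4.05 ± 0.13 and 3.31 ± 0.09. Gnas, the G protein subunit itself, was not called (log2 fold change -0.01, edgeR quasi-likelihood, adjusted p = 0.754), and the phosphodiesterases divided, Pde4b at 2.58 ± 0.14 against Pde7b at -3.91 ± 0.12 and Pde10a at -2.76 ± 0.07.

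In the IGF pathway both ligands fell, Igf1 at -1.73 ± 0.07 and Igf2 at -0.50 ± 0.05 on the log2 scale, though Igf2 turned positive with the authors' library sizes. Binding proteins and their regulators rose in 8 of 11 cases. Igfbp6 had 54, 59.2, 51.4 and 54.3 CPM in the KO-labelled libraries, against 3.55, 4.44, 3.95 and 3.82 CPM in the WT libraries, and Igfbp4, the binding protein cut by the protease PAPP-A, fell, at a log2 fold change of -2.31 ± 0.04. Htra1, a secreted serine protease, rose by a log2 fold change of 2.82 ± 0.05. The receptor Igf1r was not called (log2 fold change -0.03, edgeR quasi-likelihood, adjusted p = 0.472). FGF genes rose in 11 of 22 members and fell in 9, with Fgfr1 at 987 ± 43.9 CPM in the KO-labelled libraries and 415 ± 24 CPM in the WT libraries, and the feedback genes Spry1 and Dusp4 at log2 fold changes of 1.92 ± 0.05 and 2.34 ± 0.08. Among Notch genes Notch3 fell to 58 ± 1.92 CPM, against 334 ± 10.4 CPM in the WT libraries, Rbpj, the DNA-binding partner, rose by a log2 fold change of 2.06 ± 0.04, and Notch2 and Hes1 were not called (-0.06 and -0.15).

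Dexamethasone was in both media, and glucocorticoid genes were divided, 8 higher and 8 lower of 20. Fkbp5, a chaperone partner of the receptor, rose by a log2 fold change of 0.93 ± 0.03 and Tsc22d3 (GILZ) by 0.54 ± 0.04. Per1, Klf9 and Zbtb16, standard targets as well, were not called, at log2 fold changes of 0.10, 0.03 and 0.10. Each was called higher with each chromosome centred, at 0.555, 0.108 and 0.338. The metallothioneins Mt1 and Mt2 rose to 208 ± 10.5 and 212 ± 16.8 CPM, against 28.2 ± 2.35 and 8.18 ± 0.653 CPM in the WT libraries. The receptor gene Nr3c1 stood at 75.7 ± 5.97 CPM and 84.1 ± 1.58 CPM with overlapping groups. In the retinoic acid pathway 7 of 14 measured genes rose and 7 fell. Among those that fell were Aldh1a2 and Aldh1a1, which make the acid, and Cyp26b1, which breaks it down, at -10.95, -1.88 and -2.62 on the log2 scale.

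Factors by which osteoblasts steer osteoclasts rose in 6 of 9 members and fell in 3, but only 1 rose and 0 fell by at least 2-fold. Tnfsf11 (RANKL) had 3.61, 3.91, 4.24 and 4.44 CPM in the KO-labelled libraries, against 2.27, 1.96, 2.85 and 2.52 CPM in the WT libraries. Tnfrsf11b, its decoy osteoprotegerin, had 34.8, 36.3, 40.9 and 34.3 CPM, against 25.9, 26.7, 25.1 and 27.9 CPM in the WT libraries. Both genes were called, yet their ratio per length was 0.14 ± 0.0155 in the KO-labelled libraries and 0.115 ± 0.021 in the WT libraries, a difference that the exact two-sided permutation test did not pass (SD, n = 4 each; p = 0.1143). Csf1, the growth factor of osteoclast precursors, fell, at a log2 fold change of -0.69 ± 0.04, and Il34, which shares its receptor, rose by 1.16 ± 0.07.

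Inflammatory genes fell in 13 of 19 members and rose in 5, 8 and 2 by at least 2-fold. Il1rn, the interleukin-1 receptor antagonist, had 4.17, 4.02, 3.71 and 2.65 CPM in the KO-labelled libraries, against 52.3, 54.5, 63.8 and 51 CPM in the WT libraries, and Ccl7 and Lif fell, at log2 fold changes of -2.45 ± 0.08 and -2.09 ± 0.06. Cxcl10 and Ccl5 rose by log2 fold changes of 1.87 ± 0.23 and 1.93 ± 0.14. Interferon-stimulated genes rose in 15 of 25 members and fell in 5, with a median of 0.59 against -1.59 at day 3. Bst2 (tetherin) had 284, 283, 225 and 302 CPM in the KO-labelled libraries, against 42.2, 59.7, 41 and 49.4 CPM in the WT libraries, while Ifit3, Oas1a and Mx1 were not called, at log2 fold changes of 0.30, 0.23 and 0.70. Of 10 antigen presentation genes 4 rose and 6 fell, and their summed level was 1490.0 to 1672 CPM in the KO-labelled libraries and 1259.8 to 1376 CPM in the WT libraries. Those that fell included the peptide transporters Tap1 and Tap2 at log2 fold changes of -2.28 ± 0.07 and -2.75 ± 0.05 and the immunoproteasome subunits Psmb8 and Psmb9 at -3.29 ± 0.07 and -3.49 ± 0.10.

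Markers of other cells were detected as well, at levels that differed between cell types. Of 22 macrophage and myeloid markers 18 were measured, 16 fell and 2 were not called, and their summed level was 21.9 to 27.1 CPM in the KO-labelled libraries and 192 to 218 CPM in the WT libraries. Ptprc (CD45) stood at 0.0614 ± 0.0465 CPM in the KO-labelled libraries and 1.2 ± 0.2 CPM in the WT libraries, Adgre1 (F4/80) at 0.311 ± 0.0465 and 5.88 ± 0.353 CPM, and the complement gene C1qb at 0.524 ± 0.227 and 11 ± 0.79 CPM. None was at 0 in either group. The part of such cells in the inflammatory, antigen-presentation and cathepsin results was not tested, and in bulk RNA fewer cells of a type and less RNA per cell cannot be told apart. Osteoclast markers were 7 of 11 measured, 2 higher and 3 lower, with Acp5 at 1.05 ± 0.23 and 7.56 ± 0.647 CPM. They summed to 176 to 198 CPM in the KO-labelled libraries and 141 to 154 CPM in the WT libraries. Of 12 endothelial markers 4 were measured, summing to 25.6 to 31.6 CPM and 10.1 to 11.7 CPM, and Pecam1 and Cdh5 were not among them. None of 15 lymphoid and erythroid markers was measured. Of 5 measured muscle markers 2 were higher and 3 lower, and of 4 measured neural and glial markers 1 was higher and 3 were lower. The higher one was Tubb3, a neuronal tubulin, at 22.2 ± 1.77 CPM in the KO-labelled libraries, against 1.03 ± 0.141 CPM in the WT libraries. The neural and glial markers summed to 132 to 135 CPM in the KO-labelled libraries and 137 to 146 CPM in the WT libraries. The labelled cell type was checked against its own markers, and Runx2, Sp7, Alpl, Ibsp, Col1a1, Pdgfra and Cxcl12 were detected in all 8 libraries. Detection did not mean equal levels. Alpl, Ibsp and Col1a1 were higher and Pdgfra and Cxcl12 lower in the KO-labelled libraries. Thy1, another marker of stromal progenitors, was near absence there, while Lepr was higher. Not all markers of these cells are named here.

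Patterning and imprinted genes also differed between the cultures. Of 32 Hox and limb genes 10 rose and 18 fell. Hoxd8 had 823 counts in the KO-labelled libraries and 0 in the WT libraries, at least 281-fold higher with the WT libraries set at that floor, and Hoxc12 and Hoxc13 fell, at log2 fold changes of -7.20 ± 0.25 and -3.84 ± 0.07. At day 3 Hoxc12 and Hoxc13 already had log2 fold changes of -6.37 and -3.32. Of 20 imprinted genes 9 rose and 11 fell. Besides H19, Asb4 fell to 0.312 ± 0.152 CPM, against 53.5 ± 1.77 CPM in the WT libraries, Peg3 at a log2 fold change of -4.49 ± 0.07 and Dlk1, a Notch-like inhibitor of fat cell differentiation, at -2.57 ± 0.07. Cadherin 13 (Cdh13) rose to 48.6 ± 2.25 CPM, against 0.674 ± 0.116 CPM in the WT libraries, and Cdh11, the osteoblast cadherin, fell, at a log2 fold change of -0.79 ± 0.04.

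The genotype difference at day 7 was finally tested against that at day 3 with the interaction term of the same model. Medium and seeding density differ between the days along with time. The interaction was called for 66.0% of all genes, 32.5% more positive and 33.5% more negative at day 7, and it reached 2-fold for 16.2%. For 1426 genes (10.6%) the difference was called at both days in opposite directions with a called interaction. Chaperones and mineralisation genes shifted upward: the interaction was more positive at day 7 for 24 of 25 chaperones, 11 of 13 mineralisation genes, 16 of 17 lysosomal genes and 23 of 25 interferon-stimulated genes. It was more negative for all 23 mitotic genes, 22 of 25 replication genes, 21 of 26 contractile genes and 45 of 75 respiratory subunits.

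Single genes show the size of these shifts. Bglap2 stood at a log2 fold change of 4.03 at day 7 and -2.37 at day 3, an interaction of 6.40 ± 0.23. At day 7 and day 3 Spp1 stood at 1.65 and -1.10, and Mki67 at -0.86 and 1.06, on the same scale. These genes were called in opposite directions at the 2 days. The widest positive interactions belonged to Thbs4 (8.04 ± 1.45), Car9 (7.57 ± 0.97), Plin4 (6.23 ± 0.18), Bmp8a (5.66 ± 0.37), Apod, a lipocalin (5.64 ± 0.38), and Col10a1 (5.59 ± 0.24), along with Bglap2 and Cyb5r2, which had 0 counts in the WT libraries at day 7. The widest negative ones belonged to the kinase genes Wnk2 (-5.92 ± 0.93) and Hunk (-4.69 ± 0.12), the synaptic scaffold gene Shank2 (-5.79 ± 0.17), the Wnt inhibitor Apcdd1 (-5.45 ± 0.12), the IGF-binding protein protease Pappa (-5.44 ± 0.12), Ankrd1 (-4.66 ± 0.25) and Col6a5 (-3.87 ± 0.31), along with St14. Errors of genes with few counts in a group, such as Wnk2, Shank2 and Thbs4, are not reliable.

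**Figure D5:**
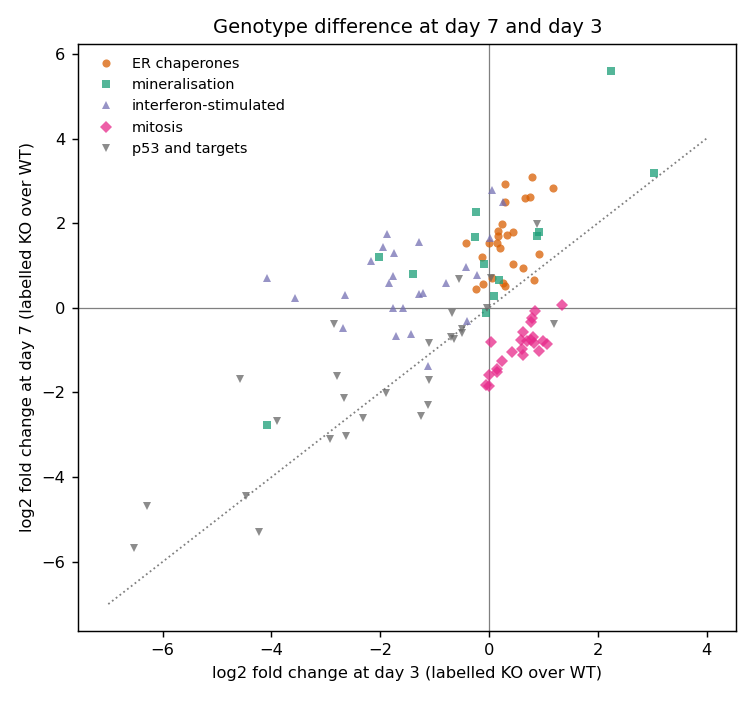
Log2 fold change at day 7 (vertical axis) against that at day 3 (horizontal axis) for members of 5 gene lists; positive values are higher in the KO-labelled libraries. Mitotic genes lie below the diagonal, with medians of -0.83 and 0.63, and chaperones, mineralisation and interferon-stimulated genes lie mostly above it, while p53 targets lie on both sides of it.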

How the data were processed

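Poly-A RNA of 16 wells was sequenced as strand-specific paired-end libraries, per the labels' protocols, and the 8 libraries of day 7 are described here. The counts are raw read counts per gene that the authors deposited, 1 column per library. The scaled columns deposited by the authors are a signal made of counts divided by 1 constant per library, and were used only as an alternative set of library sizes. STAR 2.4.2a, featureCounts, edgeR and mm10 are named in the submitters' processing notes, with no roles. The table holds 13474 genes, none with fewer than 105 counts in sum, and genes of lower counts were not analysed here. It has 22 symbols turned into dates and 1 symbol that occurs more than once. RNA integrity numbers of single samples reach 10, above the range stated in the extract protocol.

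All 16 libraries were fitted as 4 group means with edgeR 4.0.16 (robust quasi-likelihood F test, TMM scaling, limma 3.58.1, R 4.3.3), and p was adjusted over all genes by the Benjamini-Hochberg method. The automatic count filter removed 0 genes. CPM use TMM library sizes, and RPKM divide them by the gene length in the table. Single measures per library were compared by exact two-sided permutation tests (Python 3.11.15, pandas 2.3.3, numpy 2.4.6, scipy 1.17.1), and figures were drawn with matplotlib 3.10.9. The fit was tested on simulated data in which a small part of the genes changed, in near equal parts up and down. That could not test the scaling between groups where most genes differ, as they do here. Alternatives were other library sizes, chromosome centring, filters, DESeq2 1.42.0, day 7 alone, a test against 1.5-fold, libraries that share a number summed, and leaving out each library. Promoters are from a RefSeq table of build GRCm38.p6, matched by symbol for 10166 of the genes.

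The members, the 51 gene lists and the tests were chosen with earlier results of these data known. Named genes are Zfp384, the 15 widest fold changes and the 12 widest CPM changes in each direction, the 8 widest interactions in each direction, the 8 most variable genes per group, and per list the anchors, members not called and up to 6 called members of widest change. Outside that rule, Canx, Pdia6, Dnajc3, Creld2, Dnajb11, Nupr1, Cnn2, Myl9, Myl6, Vcl and Srf were named after their promoter matches and values were seen, and Erdr1, Kdm5d, Uty, Eif2s3y, Ddx3x and Xist after their values were seen. A few genes that fall under the rule are not reported here.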

Additional observations from a re-analysis of the deposited data

Results flagged for a closer look

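A single library stood far from the other 3 of its group for 15 of 338 genes of the text in the KO-labelled group (4.44%) and for 24 of 333 in the WT group (7.21%). Chance alone marks about 1 in 20 such groups of values. That rate does not hold where all counts of a group lie in 1 library, since such a group is always marked. Among the KO-labelled libraries the values lay as follows. Library 13 held the highest value for Col13a1 (5.05 CPM), Myc (176 CPM), Spry1 (200.3 CPM), St14 (0.0253 CPM) and Xlr4b (0.0253 CPM), and the lowest value for Actb (1539 CPM). Library 14 held the highest value for Adipoq (0.0287 CPM) and Cyp26b1 (10.7 CPM). Library 15 held the highest value for Hmmr (17.8 CPM) and Ogn (399.9 CPM), and the lowest value for Il34 (17.5 CPM) and Zbtb7c (39.3 CPM). Library 16 held the highest value for Lama3 (35.5 CPM), and the lowest value for Acp5 (0.703 CPM) and Slc36a4 (17.1 CPM). Among these genes are the matrix gene Ogn, the growth regulators Myc and Spry1 and the cytoskeletal actin Actb, and Adipoq, St14 and Xlr4b had 1 count in the whole group.

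Among the WT libraries the values lay as follows. Library 9 held the highest value for Npc1 (41.7 CPM) and Thbs4 (0.162 CPM), and the lowest value for Calr (952 CPM). Library 10 held the highest value for Adgre1 (6.4 CPM), Cdh13 (0.846 CPM), Gpr141 (0.0265 CPM), Ppp1r15a (13.5 CPM), Rrp9 (29.8 CPM), Sfrp4 (0.0529 CPM) and Trib3 (3.44 CPM), and the lowest value for Myocd (7.17 CPM) and Slfn3 (18.1 CPM). Library 10b held the lowest value for Alpl (355 CPM) and Pth1r (25.9 CPM). Library 11 held the highest value for Car6 (0.0283 CPM), Car9 (0.481 CPM), Col13a1 (0.0283 CPM), Hes1 (12.4 CPM), Hsp90b1 (1272 CPM), Hunk (20.6 CPM), Ifit3 (37.3 CPM) and Thbs1 (2194 CPM), and the lowest value for Asb4 (50.8 CPM) and Ptprc (0.905 CPM). The mineral phosphatase Alpl and the parathyroid hormone receptor Pth1r were thus both lowest in library 10b, and the macrophage gene Adgre1 was highest in library 10. Col13a1, Car6 and Gpr141 had 1 count each in the WT group, and Sfrp4 had 2.

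The genotype difference at day 7 differed from that at day 3, by the interaction term of the edgeR fit, for 265 of the 338 genes of the text (78.4%), and 33 of them (9.76%) were called in opposite directions at the 2 days, against 10.6% of all genes. The values in brackets are the log2 fold change at day 7 minus that at day 3. Genes of bone, cartilage and matrix that were higher in the KO-labelled libraries at day 7 and lower at day 3 were Bglap (4.81), Bglap2 (6.40), Ibsp (2.38), Spp1 (2.75), Enpp1 (1.92), Bmp2 (3.73), Bmp8a (5.66), Fmod (3.53), Col5a1 (1.25), Col10a1 (5.59), Itga10 (3.11) and Sox9 (1.75). Genes of folding, stress, lipid and inflammation with the same turn were Canx (0.69), Dnajc3 (1.34), Sqstm1 (1.49), Hmox1 (2.15), Tsc22d3 (0.81), Ccl5 (2.30), Apod (5.64) and Plin4 (6.23). Genes of division and of the contractile cell that were lower at day 7 and higher at day 3 were Mki67 (-1.92), Cenpf (-1.58), Tagln (-2.57), Srf (-0.92) and Vcl (-1.74). Genes of Wnt, BMP and other signals with that second turn were Axin2 (-2.59), Apcdd1 (-5.45), Id1 (-0.52), Twist2 (-1.55), Hunk (-4.69), Pappa (-5.44), Wnk2 (-5.92) and Shank2 (-5.79). Among genes without a called change of direction, the difference was far more positive at day 7 for Car9 (7.57), Thbs4 (8.04) and Cyb5r2 (6.82), and far more negative for Ankrd1 (-4.66), Col6a5 (-3.87) and St14 (-4.06). Ankrd1 was higher and Col6a5 and St14 were lower in the KO-labelled libraries at both days. Values that rest on a group of few counts (Thbs4, Cyb5r2, St14, Wnk2 and Shank2) depend on how the fit treats small counts.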

How the results depend on the processing

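The 11592 genes called at day 7 became 11126 to 12056 under the alternatives to library size, filter, tool and set of libraries, and 11422 to 11553 without any 1 library. A test against a 1.5-fold change called 5939. With the authors' library sizes 9087 genes were higher and 2969 lower, against 5618 and 5974 here, and 5348 changed by at least 2-fold, against 4130. That scaling also turned round Cdkn1a (0.21), Id1 (0.24), Igf2 (0.078), Nr3c1 (0.43) and Sp7 (0.32) on the log2 scale, and the medians of 15 of 51 lists, among them the respiratory chain, sterol synthesis, integrin, adipocyte, Wnt, BMP, Notch, YAP, Hox, imprinted, proteasome and osteoblast factor lists. Total counts turned the medians of 5 lists (collagen chains, collagen processing, ribosomal proteins, glucocorticoid and retinoic acid genes), and chromosome centring those of 5 (Notch, NRF2, collagen chains, ribosomal proteins, retinoic acid) and the log2 fold change of Uty (0.053). DESeq2-type size factors turned none. A count of rising or falling members moved by over 1.5 times in 9 lists with total counts, in 32 with the authors' library sizes and in 8 with chromosome centring. Sox9 was no longer called without library 13 or 14 (adjusted p = 0.116 and 0.0939) or with total counts, and Lox with chromosome centring (edgeR quasi-likelihood, adjusted p = 0.0807). Mx1 and Ifit3 were called without library 15 of the KO-labelled group or library 11 of the WT group, and Bmpr1a, Ccnb1, Derl2, Eno2, Hes1, Loxl2, Mars2, Oas1a, Per1, Tgfbr1 and Tpx2 became called without at least 1 of the libraries. Of the 338 genes of the text, 39 not called here became called with the authors' library sizes, 27 with chromosome centring and 26 with total counts. DESeq2-type size factors added Mx1 and Per1, the filter of 1 CPM added Mx1, and day 7 alone added Per1. The interaction called 8678 to 8913 genes without any 1 library, and it was not run for day 7 alone. Zfp384 kept its sign throughout (0.39 to 0.44 on the log2 scale without any 1 library, 0.99 with the authors' library sizes). Without any 1 library the difference in the share of the 10 most counted genes was 5.06 to 5.31 percentage points, that in the Col1a1 to Col1a2 ratio was -0.159 to -0.107, and that in the RANKL to osteoprotegerin ratio 0.0173 to 0.0344. With 3 against 4 libraries an exact permutation test cannot go below p = 0.0571, so the 2 called measures could not pass. No paired analysis was possible because the groups compared share no replicate numbers. Depth limits genes under about 1 CPM, where single counts move the fold change.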

Other observations

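Of the 5 measured genes that the annotation places on the Y chromosome 4 fell and 1, Erdr1, rose (log2 fold change 1.37 ± 0.09). Whether the reads of Erdr1 came from the Y chromosome was not tested. Ddx3y, which encodes an RNA helicase, had 4 counts over the KO-labelled libraries and 11125 over the WT libraries. Kdm5d, Uty and Eif2s3y, the others that fell and like Erdr1 named after their values were seen, stood at 24.6 ± 0.744, 16.6 ± 1.81 and 29.2 ± 2.61 CPM in the KO-labelled libraries and 57 ± 1.87, 28.4 ± 2.6 and 51.6 ± 2.27 CPM in the WT libraries. Ddx3x, the X-linked relative of Ddx3y and likewise named after its value was seen, rose by a log2 fold change of 0.59 ± 0.04. Xist, the RNA that silences an inactive X chromosome and also named after its value was seen, was low in both, at 0.157 ± 0.115 CPM in the KO-labelled libraries and 2.71 ± 0.252 CPM in the WT libraries.

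Other genes of the widest fold changes code for channels, receptors and enzymes with no place in the lists. Car6, a secreted carbonic anhydrase, had 3781 counts in the KO-labelled libraries and 1 in the WT libraries. The receptor genes Gpr141 and Adgrd1 had 1843 and 2987 counts in the KO-labelled libraries, against 1 and 2 in the WT libraries. In the other direction Svop, a transporter-like protein of vesicles, had 4 counts in the KO-labelled libraries and 17163 in the WT libraries, and Ano3, of the anoctamin family of ion channels and scramblases, had 7 and 20488. Ckmt1, a mitochondrial creatine kinase, had 2 counts in the KO-labelled libraries and 3155 in the WT libraries, and Gucy1a2, a subunit of the guanylate cyclase that senses nitric oxide, had 2 and 1910. At day 3 Svop and Ano3 already averaged 0.0825 and 0.043 CPM in the KO-labelled libraries, against 111 and 96.3 CPM in the WT libraries.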
